A study of Homo sapiens with 22 samples.

Results

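The genes described here encode the proteins of the mitochondrial ribosome that carry an MRPL (large subunit) or MRPS (small subunit) name. They were chosen by name alone, as protein-coding genes called MRPL or MRPS plus a number and at most a single letter, and 78 of the 20149 protein-coding genes of the annotation met the rule, 49 of them MRPL and 29 MRPS genes (MRP genes in the following). N-MYC and WDR5 had been mapped by ChIP-seq, the sequencing of DNA fragments recovered with an antibody against the protein they are bound to, in 2 N-MYC amplified neuroblastoma cell lines, as part of a study of how the interaction of N-MYC with WDR5 bears on N-MYC binding to chromatin. CHP-134 cells had been treated for 4 h with dimethyl sulfoxide (DMSO) or with a compound, with 3 libraries for each antibody and treatment, and IMR-32 cells had received no treatment and had 2 libraries for each antibody. The labels give the DMSO as 0.0005% in one field and 0.005% in another, and give the compound more than a single name, among them 419C91 and C38b, so it is not identified here. Each library pooled several ChIPs of a sample, N-MYC was pulled down with a custom serum, and the study's methods state that the experiments were repeated independently, while the labels name no separate cultures. Sequencing was of single reads for CHP-134 and of read pairs for IMR-32, so the line, the treatment and the sequencing cannot be told apart when the lines are compared. The IgG samples were not analysed here.

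The mitochondrial ribosome translates the few messages encoded by mitochondrial DNA, all of them for the respiratory chain, while its own proteins are encoded in the nucleus, made in the cytosol and imported. Some of these proteins have counterparts in bacterial ribosomes and others are found in mitochondria alone. N-MYC is a transcription factor that binds E-boxes, the sequence CACGTG in its canonical form, together with its partner MAX, and is known for driving ribosome production in neuroblastoma. WDR5 is a scaffold protein of chromatin-modifying complexes that MYC proteins contact directly.

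Peaks of N-MYC were assigned to a gene when they lay within 1 kb of any of its transcription start sites (TSSs). The sequences below are shown because they hold the canonical E-boxes, the motif that N-MYC binds best, found within 100 bp of the N-MYC summits of MRP genes in DMSO-treated CHP-134 cells. Each line gives 30 bases of GRCh37 (hg19) around the E-box, not around the summit, in the 5′ to 3′ direction of the gene and with the E-box in capitals. MRPL3 and MRPL45 are core and tunnel-exit proteins of the large subunit, MRPL36 and MRPL22 are further large subunit proteins with bacterial counterparts, MRPS2 and MRPS18C belong to the small subunit, and the product of MRPS36 has since been assigned to the oxoglutarate dehydrogenase complex. The windows of MRPL3, MRPL36 and MRPL45 overlap an annotated UTR of the gene itself, that of MRPS2 overlaps the UTR of its divergent neighbour PIERCE1, and the other windows overlap no UTR.
MRPL3, chr3:131221732-131221761, minus strand: ggctactgcgtcCACGTGgcggtggcgtgg
MRPL36, chr5:1799990-1800019, minus strand: acgtgggcacgcCACGTGaccccccccccc
MRPL45, chr17:36452989-36453018, plus strand: cactcccgcgagCACGTGcgcgtcctcgct
MRPS18C, chr4:84377020-84377049, plus strand: aatcataagcctCACGTGacctgccgcgta
MRPS36, chr5:68513449-68513478, plus strand: aacaatagaacaCACGTGggtggatcctag
MRPL22, chr5:154320445-154320474, plus strand: ttttcggaagccCACGTGctttcggccttt
MRPS2, chr9:138391743-138391772, plus strand: cgacggccaggtCACGTGactggggagcga

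The strongest WDR5 site of an MRP gene lay at MRPL48, which encodes a protein of the central protuberance of the large subunit, and its summit is shown for both lines because it is the site to which the WDR5 results below return. The windows are 30 bases of GRCh37 on the plus strand around the WDR5 summit that overlap an annotated UTR of the gene, and hold no E-box. MRPL27, whose product reaches towards the peptidyl transferase centre, was the other gene called for both proteins in both lines. It shares its promoter with the DNA repair gene EME1, whose TSS lies 13 bp away, and 61 bases around its WDR5 summit, outside annotated UTRs, are shown with it.
MRPL48, CHP-134, chr11:73498986-73499015: tgcacagctagaggccgcgcagcagcaaag
MRPL48, IMR-32, chr11:73499012-73499041: aaaggatgagcggaaccttggaaaaggtaa
MRPL27, CHP-134, chr17:48450447-48450507, minus strand: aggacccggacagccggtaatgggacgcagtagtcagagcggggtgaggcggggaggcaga

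N-MYC was found at most MRP genes in DMSO-treated CHP-134 cells. The 3 N-MYC lists held 15286, 9125 and 12283 peaks and listed 59, 46 and 54 MRP genes, that is 75.6%, 59.0% and 69.2% of them, against 44.4%, 30.3% and 37.6% of all protein-coding genes. A gene was called when it was listed in at least 2 libraries of a group. By this rule 54 of 78 MRP genes (69.2%) were called for N-MYC, beside 37.6% of all protein-coding genes. Of the 54, 40 were listed in every library, that is 51.3% of the 78 MRP genes, beside 26.5% of all protein-coding genes. MRPS genes were called at 23 of 29 (79.3%) and MRPL genes at 31 of 49 (63.3%). Genes with a bacterial counterpart were called at 30 of 46 (65.2%) and genes for mitochondria-specific proteins at 22 of 30 (73.3%), MRPS28 and MRPS36 not being classed. Here and in the following, shares of MRP genes set beside shares of other genes are descriptions, and the differences between them were not tested.

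Many MRP genes share a promoter with another gene. Of the MRP genes, 33 (42.3%) had a TSS of another protein-coding gene within 1 kb, compared with 18.4% of all protein-coding genes. N-MYC was called at 24 of these 33 (72.7%) and at 30 of the other 45 (66.7%), against 55.4% and 33.6% of all protein-coding genes of the same kinds. The shares of MRP genes thus lay above those of all genes with and without a neighbour, and a peak at a shared promoter cannot be given to either gene. MRPL46 and MRPS11 are themselves such a pair, with TSSs 318 bp apart, and the same peaks were listed for both.

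**Figure D1:**
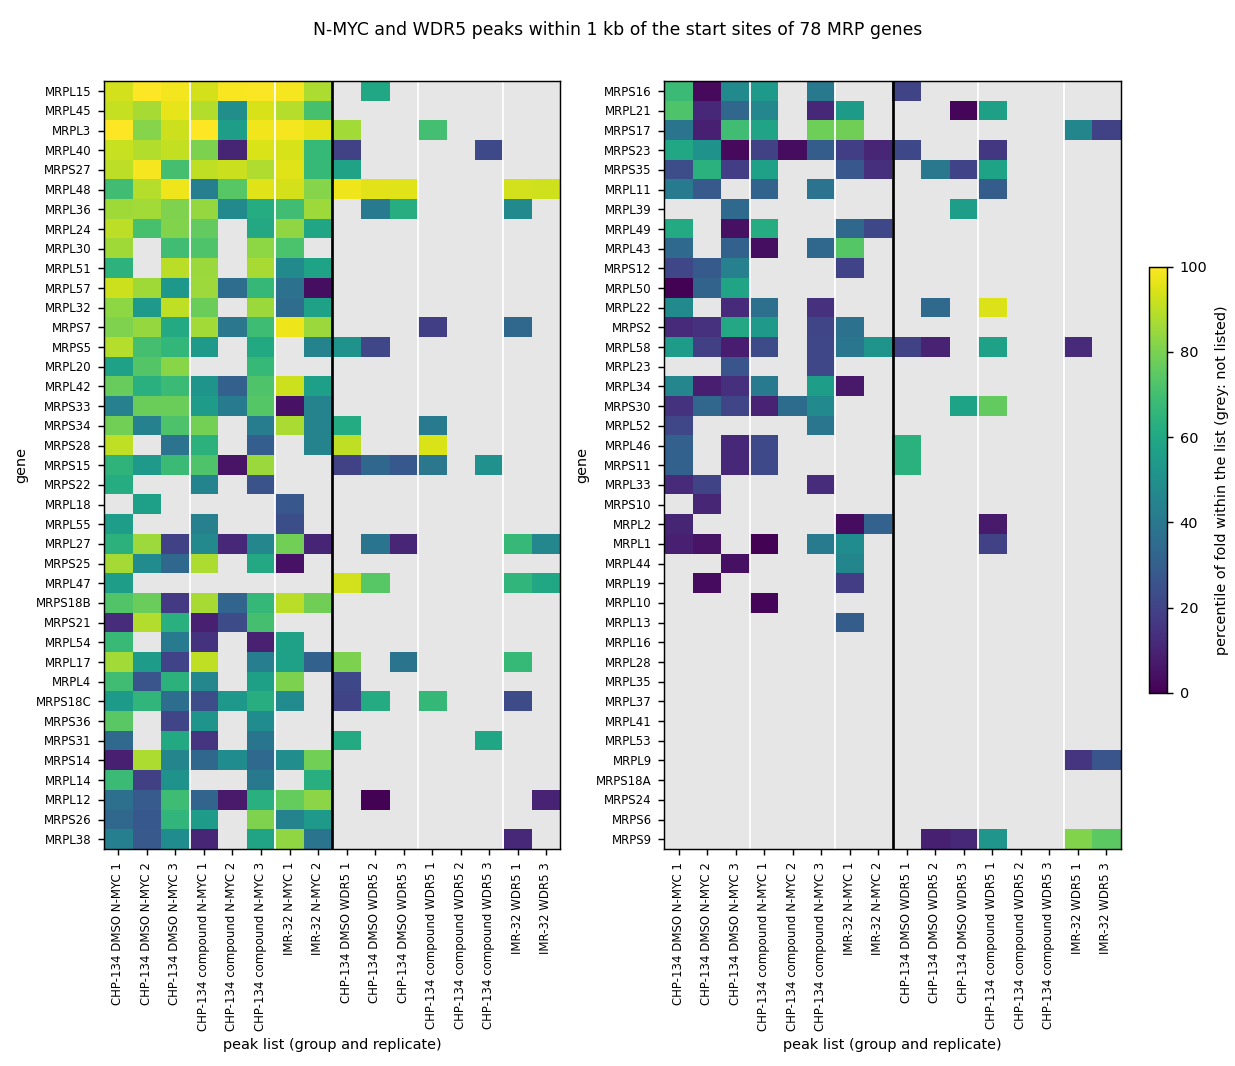
Each row is an MRP gene and each column a peak list, with N-MYC lists left of the black line and WDR5 lists right of it. Colour is the percentile of the peak's fold among all peaks of that list, grey marks genes without a peak within 1 kb of a TSS, and genes are ordered by their mean N-MYC percentile over the DMSO libraries that listed them. N-MYC peaks fill most rows and WDR5 peaks few. MRPL48 is the only row with values for both proteins in each DMSO and IMR-32 list. MRPL3 and MRPS28 also have high WDR5 values, each in 1 DMSO and 1 compound list.

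N-MYC peaks at MRP genes covered most of the range of peak heights. Height is given as the percentile of the fold, the deposited ratio of a peak's signal over its local background, among all peaks of the same list. Over the 54 called MRP genes the mean percentile of a gene had a median of 52.7 and ran from 7.1 to 97.0, and over all 7572 called protein-coding genes the median was 55.6. The genes for proteins of the cytosolic ribosome had a median of 66.1 over 73 called genes.

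The 5 MRP genes with the highest N-MYC percentiles in DMSO were MRPL15, MRPL45, MRPL3, MRPL40 and MRPS27. MRPL15, which encodes a core protein of the large subunit, was at the percentiles 93.0, 99.8 and 98.3 in the 3 DMSO libraries (97.0 ± 3.5, SD, n = 3) and at 98.5 and 87.6 in the IMR-32 libraries. MRPL45, whose product sits at the exit of the peptide tunnel and holds the ribosome to the inner membrane, was at 91.4, 87.0 and 96.3 (91.5 ± 4.7, SD, n = 3), and at 88.8 and 70.8 in IMR-32. MRPL3, a core protein near the peptidyl transferase centre, was at 99.9, 81.7 and 92.4 (91.3 ± 9.1, SD, n = 3), and at 98.7 and 95.9 in IMR-32. These 3 genes stood at or above 70.8 in each N-MYC list of untreated or DMSO-treated cells, and each of them had an E-box within 100 bp of its summit. MRPL40 stood at 91.5, 88.6 and 91.0 (90.3 ± 1.5, SD, n = 3), the least spread of the 5. MRPS27, a pentatricopeptide repeat protein of the small subunit, stood at 90.2, 98.7 and 70.5 (86.5 ± 14.4, SD, n = 3). Neither MRPL40 nor MRPS27 had an E-box within 100 bp of its summit, and MRPS27 has the TSS of PTCD2 25 bp away and MRPL40 that of HIRA 812 bp away.

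At the other end, 12 MRP genes (15.4%) were listed for N-MYC in no DMSO and no IMR-32 library, against 10103 protein-coding genes (50.1%). They were MRPL9, MRPL10, MRPL16, MRPL28, MRPL35, MRPL37, MRPL41, MRPL53, MRPS6, MRPS9, MRPS18A and MRPS24. MRPL10 had an N-MYC peak in 1 compound library, at percentile 1.6, and MRPL9 and MRPS9 had WDR5 peaks. The other 9 genes were in none of the 16 lists. The absence of a peak means that none passed the threshold of the authors and cannot be read as absence of the protein.

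A minority of the N-MYC summits of MRP genes held an E-box. A canonical E-box lay within 100 bp of the summit at 8 of 54 called MRP genes (14.8%), namely the 7 shown above and MRPL15, and at 2067 of 7572 called protein-coding genes (27.3%). Within 250 bp it was found at 11 MRP genes (20.4%, against 34.1%). With the variant CACGCG counted as well, the shares were 46.3% of MRP genes and 50.9% of all called genes. In IMR-32 the share was 5 of 27 (18.5%) against 41.9%, and at cytosolic ribosomal protein genes in CHP-134 it was 6 of 73 (8.22%). N-MYC percentiles had a median of 68.1 over the 8 MRP genes with an E-box and 50.4 over the 46 without, beside 72.8 and 49.9 over all called genes. The ranges overlapped, from 29.0 to 97.0 with an E-box and from 7.1 to 90.3 without.

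N-MYC summits at MRP genes lay close to the TSS. The median distance from summit to nearest TSS was 55.0, 66.5 and 82.5 bp in the DMSO libraries and 57.0 and 63.0 bp in the IMR-32 libraries, while over all listed protein-coding genes it was 155, 162 and 154 bp and 138 and 134 bp. The MRP values lay below the values of all genes in each of the 5 libraries. Under the compound the medians were 85.5, 111.5 and 77.0 bp for MRP genes and 171, 182 and 153 bp for all listed genes. Of the 159 N-MYC peaks of MRP genes over the 3 DMSO libraries, 90 (56.6%) had their summit within 100 bp of a TSS and 6 lay beyond 500 bp. Where both proteins had a peak at the same MRP gene, their summits were 190, 112 and 156 bp apart in the median (18, 10 and 9 genes in the 3 DMSO replicates). At cytosolic ribosomal protein genes the gap was 59, 40 and 45 bp, and over all genes 165, 128 and 134 bp.

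**Figure D2:**
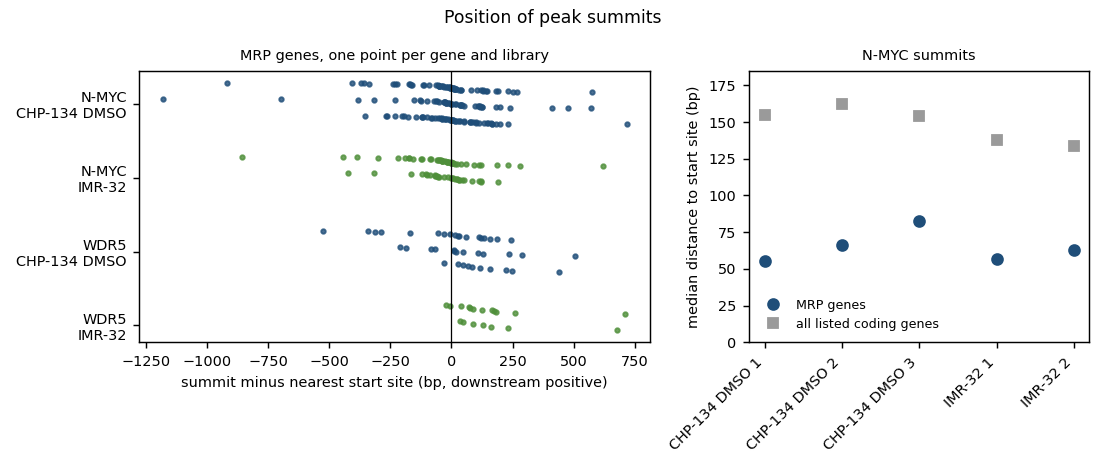
On the left, each point is the summit of the peak of an MRP gene in a library, in bp from the nearest TSS of the gene, with downstream positions positive and libraries drawn as separate rows within a group. On the right, the median distance of N-MYC summits to the TSS is plotted for the 3 DMSO and 2 IMR-32 libraries, for MRP genes and for all listed protein-coding genes, with MRP values between 55.0 and 82.5 bp, below all genes in each of these 5 libraries.

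Promoter sequence was searched for motifs of other factors. RefSeq promoters (GRCh38.p14), which run from 250 bases before the start of a gene to 50 bases after it, were found for 69 of the 78 MRP genes and were compared with 15318 promoters of protein-coding genes, both strands being searched. The motif AAGATGGCG, the core of the YY1 site, was present in 13 MRP promoters (18.8%) and in 2.8% of all, and CCGGAAGT, the ETS-type site of GABPA, in 11 (15.9%) and 6.33%. GCGCATGCG, a core of the NRF1 site, was present in 3 (4.35%) and 2.74%, and CACGTG in 6 (8.7%) and 8.9%. YY1, GABPA and NRF1 are known regulators of nuclear genes for mitochondrial proteins. The YY1 motif was present in 9 of 50 promoters where N-MYC was called (18.0%) and in 4 of 19 where it was not (21.1%). At cytosolic ribosomal protein genes it was present in 7.94%. The GABPA site was present in 6 of the 50 promoters where N-MYC was called and in 5 of the 19 others. It was also present in 9 of 63 cytosolic ribosomal protein promoters (14.3%), so its higher share was not particular to MRP genes. Of the 14 copies of the YY1 motif in MRP promoters, 10 lay after the start on the sense strand. The 4 other copies lay before the start, those of MRPL52 on the sense strand and those of MRPL32 and MRPL36 on the opposite strand. These 10 began 6 to 35 bases after the start, where the letters can include a start codon. A match says only that the letters are there. Examples are shown from RefSeq promoters, all on the sense strand within 30 bases of the start, with the motif in capitals.
MRPL46, chr15:88467362-88467390, minus strand: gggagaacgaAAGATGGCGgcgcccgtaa
MRPL38, chr17:75904860-75904888, minus strand: ggccggagggAAGATGGCGgcgccctggt
MRPS18B, chr6:30617853-30617881, plus strand: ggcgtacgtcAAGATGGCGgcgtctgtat
MRPS24, chr7:43869480-43869508, minus strand: cgcttggcccAAGATGGCGgcctccgtgt

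WDR5 was called at a minority of MRP genes, and in DMSO the called genes had a lower median percentile than all called genes. The 3 DMSO lists held 4891, 1758 and 1671 WDR5 peaks and listed 18, 13 and 10 MRP genes. These are 23.1%, 16.7% and 12.8% of them, against 18.5%, 8.0% and 7.0% of all protein-coding genes. WDR5 was called at 11 MRP genes (14.1%), beside 8.24% of all protein-coding genes, and both proteins at 9 (11.5%), beside 7.5%. Both were counted per gene, so their peaks need not overlap, whereas the study required overlapping peaks for its cobound sites. At MRPL36, one of the 9, the summits with the highest −log10 q lay at chr5:1800015 for N-MYC and chr5:1801259 for WDR5. WDR5 was called at 4 of the 33 MRP genes with another coding TSS within 1 kb (12.1%), against 14.7% of all such genes. It was called at 7 of the 45 MRP genes without one (15.6%), against 6.79%. Among genes called for N-MYC, WDR5 was called at 9 of 54 MRP genes (16.7%), beside 20.0% of all genes called for N-MYC. The count depended on the libraries used. Without DMSO replicate 2 WDR5 was called at 3 MRP genes (3.85%, against 5.52% of all protein-coding genes) and both proteins at 3, and without replicate 1 or replicate 3 at 6 (7.69%, against 4.1% and 6.34%) and both proteins at 5. Of the genes for proteins of the cytosolic ribosome 51 of 79 (64.6%) were called for WDR5 and 50 for both proteins (63.3%). The median WDR5 percentile was 36.3 over the 11 called MRP genes, 56.4 over all called genes and 97.9 over the called cytosolic ribosomal protein genes. Over all listed MRP genes the DMSO medians by library were 59.3, 38.5 and 33.1, against 53.7, 52.4 and 54.5 over all listed protein-coding genes. In replicate 1, the longest DMSO list, MRP genes were thus not lower. In IMR-32 the median was 59.7 over the 6 called MRP genes and 63.8 over all called genes.

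**Figure D3:**
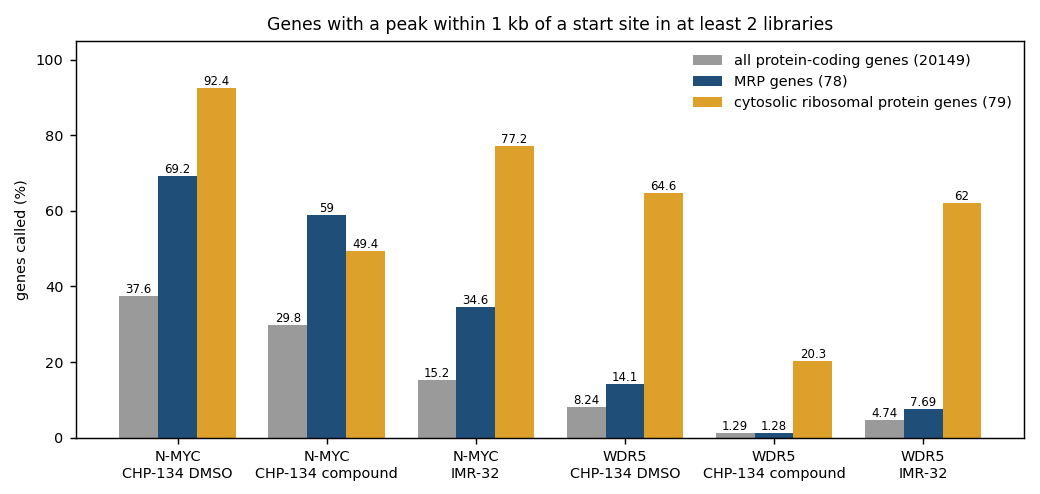
Bars give the percent of genes called, that is with a peak within 1 kb of a TSS in at least 2 libraries, for each protein and group, among all protein-coding genes, the 78 MRP genes and the 79 cytosolic ribosomal protein genes. MRP genes stand above all genes for N-MYC in each group (69.2%, 59.0% and 34.6%) and below cytosolic ribosomal protein genes for WDR5.

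MRPL48 had the highest mean WDR5 percentile of the called MRP genes. Its WDR5 percentile was 97.3, 95.3 and 95.3 in the DMSO libraries (96.0 ± 1.2, SD, n = 3) and 93.3 and 92.8 in the IMR-32 libraries, and its N-MYC percentile was 69.2, 89.0 and 97.6 in DMSO and 93.7 and 81.7 in IMR-32. Each of these 10 lists thus held MRPL48, and no other coding TSS lies within 1 kb of it. The N-MYC summits lay 113 to 233 bp downstream of the TSS and the WDR5 summits 30 to 82 bp downstream. MRPS15, whose product is a core protein of the small subunit, was the only other MRP gene listed for WDR5 in all 3 DMSO libraries, at the percentiles 19.7, 33.7 and 27.5, and it had no WDR5 or N-MYC peak in IMR-32.

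The other genes called for WDR5 in DMSO were listed in 2 of the 3 libraries. MRPL47, a large subunit protein at the tunnel exit, stood at 93.3 and 74.2 in replicates 1 and 2, and MRPL17, also near the tunnel exit, at 80.1 and 38.7 in replicates 1 and 3. MRPL36 was at 41.1 and 62.4, MRPS18C at 20.3 and 61.4, and MRPS5, a core protein of the small subunit, at 51.2 and 21.4. The values of MRPL17 and of MRPS18C were far apart between libraries, so the order of these genes is not resolved. MRPL36 shares its promoter with NDUFS6, a subunit gene of respiratory complex I, and MRPS18C with HELQ, a DNA helicase gene. MRPS35 (40.1 and 20.3), MRPL27 (38.5 and 10.7), MRPL58 (19.6 and 9.78) and MRPS9 (8.7 and 11.6) were the lowest. MRPL58 encodes a peptidyl-tRNA hydrolase that frees stalled mitochondrial ribosomes.

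MRPL47 and MRPS9 were called for WDR5 in both lines and for N-MYC in neither. MRPL47 shares its promoter with NDUFB5, which encodes a subunit of respiratory complex I, and had a single N-MYC peak in DMSO replicate 1, at percentile 55.8 and at -223 bp from the TSS, while its WDR5 summits lay 125 to 134 bp downstream in all 4 libraries that listed it. MRPS9, which encodes a core protein of the small subunit, has no other coding TSS within 1 kb and had no N-MYC peak in any list. Its WDR5 summit lay 503 and 441 bp downstream of the TSS in CHP-134 and 708 and 677 bp downstream in IMR-32. No canonical E-box was found within 100 bp of the WDR5 summit at any of the 11 MRP genes, against 21.9% of all genes called for WDR5.

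**Figure D4:**
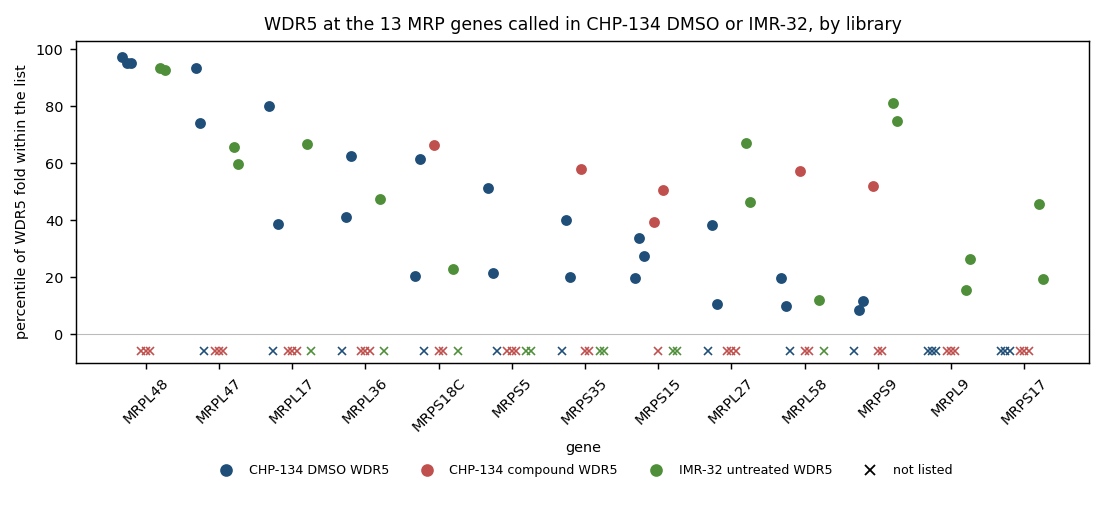
Each point is the percentile of the WDR5 fold of a gene within a peak list, for the 13 MRP genes called for WDR5 in DMSO-treated CHP-134 or in IMR-32 cells, and crosses below the zero line mark libraries that did not list the gene. MRPL48 stays above 90 in the DMSO and IMR-32 libraries and is absent from the 3 compound lists, and MRPS9 is low in DMSO and higher in IMR-32.

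IMR-32 cells had fewer peaks and fewer MRP genes called for N-MYC, most of them also called in CHP-134. The 2 N-MYC lists held 8286 and 5242 peaks and listed 44 and 30 MRP genes (56.4% and 38.5%, against 25.9% and 17.9% of all protein-coding genes). N-MYC was called at 27 MRP genes (34.6%), beside 15.2% of all protein-coding genes, and 26 of these were also called in DMSO-treated CHP-134 cells. The exception was MRPL2, with the low percentiles 3.33 and 31.4. Of the 54 MRP genes called in CHP-134, 26 were thus called in IMR-32 (48.1%), beside 38.6% of all genes called in CHP-134. A call needed both libraries in IMR-32 but 2 of 3 in CHP-134, and the lists differed in length, so these counts are not on the same footing. With equal numbers of strongest peaks N-MYC was called at 13 MRP genes in IMR-32 (16.7%, against 7.45% of all protein-coding genes). In CHP-134 DMSO it was then called at 14 (17.9%, against 10.9%). The genes for mitochondria-specific proteins were called in IMR-32 at 15 of 30 (50.0%) and those with a bacterial counterpart at 12 of 46 (26.1%), a difference that was not tested. Over the 26 genes called in both lines the mean percentiles of the lines were related (Pearson's r = 0.61, Spearman's rho = 0.65), as they were over all 2925 genes called in both (0.58 and 0.6). These are correlations across genes, which are not independent replicates and share base composition and libraries.

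WDR5 in IMR-32 was called at 6 MRP genes (7.69%), beside 4.74% of all protein-coding genes, and both proteins at 2 (2.56%), beside 2.55%. With another coding TSS within 1 kb the WDR5 share was 9.09%, against 9.62% of all such genes, and without one 6.67% against 3.64%. The 6 were MRPL9, MRPL27, MRPL47, MRPL48, MRPS9 and MRPS17, and MRPL27, MRPL47, MRPL48 and MRPS9 were also called in CHP-134. MRPL9 and MRPS17, which both have bacterial counterparts, were called for WDR5 in IMR-32 and in no DMSO library of CHP-134, at the percentiles 15.5 and 26.6 for MRPL9, whose TSS lies 4 bp from that of OAZ3, and 45.8 and 19.4 for MRPS17. MRPL27 stood at 67.0 and 46.4 and MRPL47 at 65.9 and 59.7 in IMR-32.

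The ranks of N-MYC peaks were compared between the lines over 2656 genes with a peak in all 5 libraries, 24 of them MRP genes. The rank runs from 0 to 100 among these genes within a library. With limma and Benjamini-Hochberg adjustment none of the 2656 genes passed an adjusted p of 0.05 (0.0% called), 361 having an unadjusted p below it, and no MRP gene passed, 4 of the 24 having an unadjusted p below 0.05. MRPL12, which encodes the stalk protein of the large subunit, had ranks of 5.8, 12.6 and 32.2 in CHP-134 and 50.1 and 72.3 in IMR-32, a difference of 44.29 ± 12.97 (SE) with a limma adjusted p of 0.24. MRPS18B (27.2, 54.1 and 3.7 against 75.1 and 66.7) and MRPS7 (39.1, 64.0 and 25.3 against 93.0 and 75.4) also had higher values in IMR-32, by 42.56 ± 16.18 and 41.40 ± 14.48 with limma adjusted p of 0.32 and 0.30. For these 3 genes the libraries of the lines did not overlap. The same held for MRPL38, MRPL42 and MRPL58, with differences of 31.47 ± 13.50, 27.48 ± 13.86 and 18.08 ± 11.14 (limma adjusted p = 0.39, 0.46 and 0.56). The share of all 2656 genes without overlap was not computed, so the lack of overlap is a description only. With so few libraries it can also arise without a difference between the lines.

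The lowest differences between the lines were those of MRPL57, MRPS33 and MRPL32. MRPL57 had ranks of 67.7, 66.6 and 18.7 in CHP-134 and 13.9 and 0.7 in IMR-32, a difference of -43.70 ± 17.56 (limma adjusted p = 0.35), again without overlap. MRPS33 and MRPL32 differed by -19.46 ± 17.47 and -19.16 ± 16.11, and their libraries overlapped. MRPL15, MRPL40 and MRPL27 had differences between -0.41 and 0.55, with 95% intervals that reached at least 29.6 ranks on either side, so the data do not show that their ranks were alike.

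**Figure D5:**
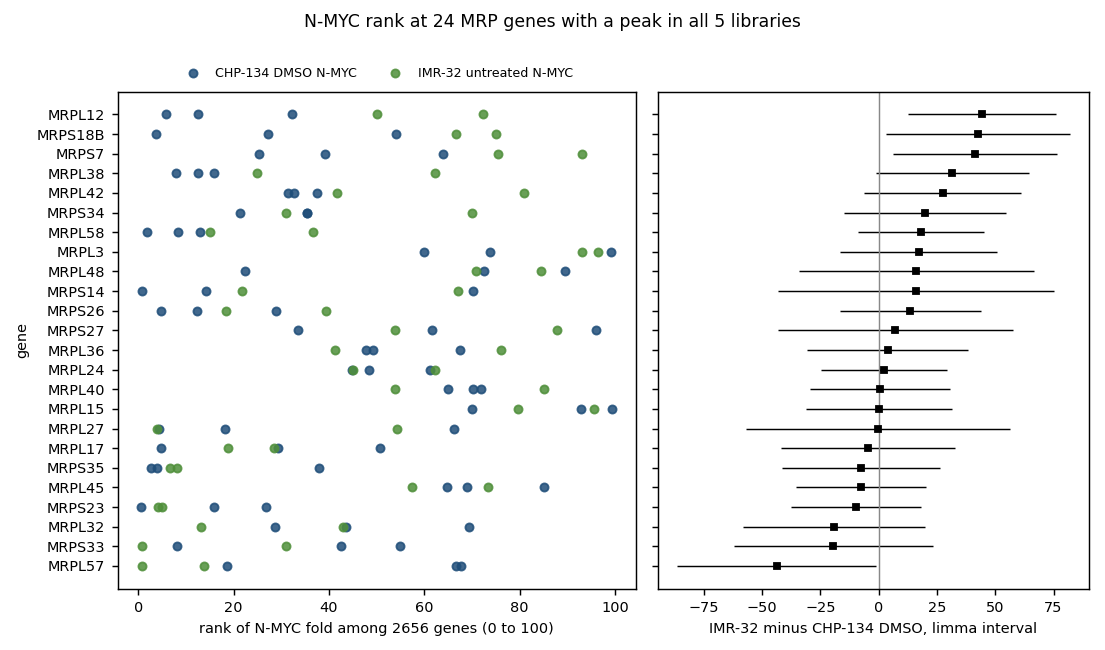
On the left, points are the rank of the N-MYC fold of 24 MRP genes in each of 5 libraries, CHP-134 DMSO in blue and IMR-32 in green. On the right, squares are the difference IMR-32 minus CHP-134 DMSO with its 95% interval from limma, from 44.29 for MRPL12 to -43.70 for MRPL57, and none passed the adjusted test.

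For WDR5, 510 genes had a peak in all 5 libraries of the lines and 26 of them (5.1%) passed the limma test with Benjamini-Hochberg adjustment, a count that fell to 0 without DMSO replicate 2 or 3 or either IMR-32 library and was 15 without DMSO replicate 1. MRPL48 was the only MRP gene among the 510. Its rank was 77.9 in the mean of CHP-134 and 76.7 in IMR-32, a difference of -1.24 ± 5.57 (limma adjusted p = 0.92, 95% interval -15.02 to 12.54). MRPS9 could be tested only when DMSO replicate 1, in which it was not listed, was left out. Its WDR5 percentiles were then 8.7 and 11.6 in CHP-134 and 81.1 and 74.8 in IMR-32, and its rank was higher in IMR-32 by 42.66 ± 4.46 (limma adjusted p = 0.039, over 521 genes of which 15 passed). Of the alternatives to this comparison, this was the only setting in which MRPS9 was tested and in which an MRP gene passed.

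The heights of the 2 proteins could be compared at the MRP genes with peaks of both in all 6 DMSO libraries, MRPL48 and MRPS15. Of 638 such genes, 290 (45.5%) passed the limma test of N-MYC rank against WDR5 rank. MRPL48 had a higher mean rank for WDR5 (84.1) than for N-MYC (60.8) and MRPS15 a higher rank for N-MYC (26.8) than for WDR5 (15.4), and neither difference passed (-23.30 ± 14.33 and 11.39 ± 7.35, limma adjusted p = 0.23 and 0.25). On the log2 scale the difference of MRPL48 passed (-1.75 ± 0.36, limma adjusted p = 0.0017), and with the percentile in the whole list that of MRPS15 passed (35.42 ± 7.30, limma adjusted p = 0.027).

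Under the compound, N-MYC was called at most of the MRP genes called in DMSO. The 3 lists held 11249, 2964 and 12313 peaks and listed 52, 20 and 51 MRP genes, the list of replicate 2 being far shorter than the others. These are 66.7%, 25.6% and 65.4% of MRP genes, against 34.5%, 10.9% and 37.1% of all protein-coding genes. N-MYC was called at 46 MRP genes (59.0%), beside 29.8% of all protein-coding genes. Of the 54 MRP genes called in DMSO 45 were called under the compound (83.3%), beside 75.9% of all genes called in DMSO, and these 45 were listed in both replicates 1 and 3. Without replicate 1 or without replicate 3 the count under the compound was 20, since the remaining pair then held the short list. At cytosolic ribosomal protein genes 39 of 73 (53.4%) were called under the compound.

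The 9 MRP genes called in DMSO and not under the compound were MRPL14, MRPL20, MRPL33, MRPL46, MRPL49, MRPL50, MRPS11, MRPS12 and MRPS35. MRPL50 and MRPS12, the latter a protein of the decoding centre, were in none of the compound lists, with DMSO percentiles of 0.64, 31.9 and 58.3 for MRPL50 and 21.3, 28.3 and 43.7 for MRPS12. MRPL20 had a DMSO percentile of 57.3, 73.4 and 82.2, the highest mean of the 9, and was listed under the compound in replicate 3 only, at 67.1. MRPS22 was the only MRP gene called under the compound and not in DMSO, at 45.1 and 25.6.

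For N-MYC ranks the compound was compared with DMSO by the same test. Over 2101 genes with a peak in all 6 libraries none passed (0.0% called by limma with Benjamini-Hochberg adjustment, 20 with an unadjusted p below 0.05), and none of the 20 MRP genes among them had an unadjusted p below 0.05. The highest differences were 16.85 ± 13.64 for MRPS18B, 12.68 ± 13.58 for MRPS18C and 12.44 ± 18.67 for MRPS27, and the lowest -17.52 ± 16.60 for MRPL40, -11.64 ± 14.22 for MRPL27 and -10.44 ± 16.78 for MRPS21, each with a limma adjusted p of 1. MRPL40 had ranks of 58.5, 61.6 and 64.2 in DMSO and 45.9, 9.9 and 75.9 under the compound, so the spread under the compound covered the DMSO values. MRPL15 remained near the top, at the percentiles 93.4, 99.0 and 99.5. With 3 libraries a group the 95% intervals of the 20 genes were wide, running from -24.31 to 35.78 ranks for MRPL15. With the replicate number as a block, 119 of the 2101 genes had an unadjusted p below 0.05 and none passed, and none of the 20 MRP genes had an unadjusted p below 0.05. The interval of MRPL15, with ranks of 64.3, 99.2 and 90.7 in DMSO and 74.8, 99.1 and 97.5 under the compound, then ran from -9.20 to 20.67, and that of MRPL48 from -18.88 to 15.64. MRPL3 (99.0, 46.4 and 67.9 against 99.6, 54.8 and 88.7) and MRPS30 (1.1, 5.9 and 3.8 against 1.8, 34.2 and 11.8) had higher ranks under the compound in each of the 3 pairs, with blocked differences of 9.93 ± 6.54 and 12.32 ± 7.58 (limma adjusted p = 0.81 for both). The share of the 2101 genes that were higher in all 3 pairs was not computed. This pattern is thus a description only, and MRPS30 was named after its values were seen. The intervals do not show that ranks were alike with and without the compound.

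The WDR5 lists under the compound differed widely in length, with 5973, 15 and 401 peaks. They listed 16, 0 and 3 MRP genes (20.5%, 0.0% and 3.8%, against 15.7%, 0.1% and 1.9% of all protein-coding genes). By the rule of 2 libraries a single MRP gene was called, MRPS15 (1.28%), beside 1.29% of all protein-coding genes. In replicate 1, whose list is longer than any of the DMSO lists, 5 of the 11 MRP genes called in DMSO were listed (45.5%), beside 53.4% of all genes called in DMSO. They were MRPL58, MRPS9, MRPS15, MRPS18C and MRPS35.

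MRPL48, the MRP gene with the highest WDR5 percentile in DMSO, was in none of the 3 compound lists. Among all genes with a mean DMSO percentile of at least 90, 142 of 202 (70.3%) were listed in replicate 1, as were 40 of 44 cytosolic ribosomal protein genes (90.9%). In the short lists of replicates 2 and 3 only 10 (4.95%) and 47 (23.3%) of the 202 were listed, so absence was the usual outcome there. N-MYC remained listed at MRPL48 in all 3 compound libraries, at the percentiles 43.1, 73.9 and 95.0. The comparison thus rests on the list of replicate 1, its number of reads is unknown, and the absence of a peak from it was not tested. Where ranks could be tested, over the 141 genes with a peak in the DMSO libraries and in compound replicates 1 and 3, 38 (27.0%) passed the limma test. The count was 4 to 5 when a single DMSO library was left out. It was 121 of 443 genes without compound replicate 3, when the compound is a single library that is assumed to vary like those of DMSO. The only MRP gene tested was MRPS15, with WDR5 ranks of 2.8, 15.6 and 16.3 in DMSO and 21.3 and 41.8 under the compound, a difference of 19.98 ± 9.92 (limma adjusted p = 0.17). Compound replicate 2, with 15 peaks, was left out of this fit.

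The other genes of mitochondrial gene expression were counted in the same way. In DMSO-treated CHP-134 cells N-MYC was called at 8 of 12 mitochondrial translation factors, 16 of 19 genes of mitochondrial ribosome assembly, 16 of 19 mitochondrial aminoacyl-tRNA synthetases, 8 of 10 genes of mitochondrial transcription and RNA stability and 3 of 5 mitochondrial ribosomal proteins without an MRP name. The share over all protein-coding genes was 37.6%. WDR5 was called at 1, 1, 2, 0 and 0 of these, that is at 8.33% of the translation factors, 5.26% of the assembly genes and 10.5% of the synthetases, beside 8.24% of all protein-coding genes. Among the genes called for both were MTRFR, a release factor, RPUSD4, a pseudouridine synthase of the mitochondrial ribosomal RNA, and the tryptophanyl-tRNA synthetase WARS2. Their mean WDR5 percentiles in DMSO were 66.1 ± 13.7 for MTRFR, 87.6 ± 8.8 for RPUSD4 and 83.9 ± 15.0 for WARS2 (SD, n = 3 each), and RPUSD4 also had an N-MYC percentile of 99.9 ± 0.1 (SD, n = 3). The cytosolic ribosomal protein genes called for both with the highest WDR5 percentiles were RPS3 (99.7 ± 0.1), RPL7 (99.4 ± 0.5), RPL5 (99.2 ± 0.7), RPL7A (99.1 ± 0.4) and RPL31 (99.0 ± 0.4, SD, n = 3 each), above the 96.0 ± 1.2 of MRPL48.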

How the data were processed

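Peak lists of 16 ChIP-seq libraries were used. Per the paper's methods and the labels, the authors removed adapters with Cutadapt, aligned reads to hg19 with Bowtie2 and called peaks in each library with MACS2 at a q-value of 0.05. Versions are not given in the sources used here. The deposited lists give per peak a fold (the ratio of signal over local background), a −log10 p-value, a −log10 q-value and a score. Peaks were ranked by fold inside each list. The deposited −log10 q-value served as a stricter filter and to choose summits. No use was made of the deposited score and −log10 p-value, and folds of different lists were set against each other only in the alternative of log2 folds centred on the median of their library. The lists hold no read counts, so depth is unknown, and the number of peaks in a list and of libraries in a group limits the precision. All 94408 peaks lay within the GRCh37 chromosomes.

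TSSs were those of basic transcripts of protein-coding genes in GENCODE 44 mapped to GRCh37. The strongest peak within 1 kb was taken per gene and library, and its percentile was the rank of its fold over the number of peaks in the list. Ranks of genes with a peak in every library of a comparison were tested with limma 3.58.1 (R 4.3.3) with Benjamini-Hochberg adjustment over all genes tested, and lists with fewer than 100 peaks were left out. The summit with the highest −log10 q over a group was searched for motifs. The fit and the assignment of peaks were tested on simulated data. Libraries with the same number in the labels deviated together between compound and DMSO for N-MYC (correlations of 0.641, 0.604 and 0.653) and between N-MYC and WDR5 in DMSO (0.423, 0.386 and 0.388), so the number was used as a block in an alternative fit. Genes were named when called for WDR5, when among the 5 highest or without N-MYC, when among the 3 highest or lowest rank differences, when past a test, or when among the 5 highest for WDR5 of a comparison list. The genes and lists were chosen with earlier results of these data known. Genes named for a promoter motif, for their calls under the compound, or as MRPL2, MRPL20, MRPL42, MRPS30, MRPL46 and MRPS11, were chosen after their values were seen. Alternatives were summits in place of peak intervals, 500 bp, a −log10 q of 3, equal numbers of strongest peaks, calls in every or any library, other scales of height, the replicate block, other E-box windows, and leaving out each library. The values of 1 gene that met the naming rule are not reported here.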

Additional observations from a re-analysis of the deposited data

How the results depend on the processing

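Over 117 alternative values, 70 stayed within 1.5 times the reported count. MRP genes were above all protein-coding genes for N-MYC in 26 of 26 settings, for WDR5 in 18 of 26, and below them for E-boxes in 6 of 6. With equal numbers of strongest peaks (2964 for N-MYC, 401 for WDR5), fewer peaks enter. N-MYC was then called at 14 MRP genes in DMSO, 13 in IMR-32 and 13 under the compound. These are 17.9%, 16.7% and 16.7%, against 10.9%, 7.45% and 10.2% of all protein-coding genes. WDR5 was called at 1, 2 and 0 (1.28%, 2.56% and 0.0%, against 1.78%, 1.66% and 0.432%). Both proteins were called at 1 in DMSO (1.28%, against 0.873%). Listing in every library gave 2 for WDR5 (2.56%, against 3.86% of all protein-coding genes) and 2 for both (2.56%, against 3.17%) in DMSO. Under the compound it gave 20 for N-MYC (25.6%, against 10.6%) and 0 for WDR5 (0.0%, against 0.0844%). Listing in at least 1 library gave 28 for WDR5 (35.9%, against 21.5%) and 27 for both (34.6%, against 20.1%) in DMSO. For the IMR-32 lists it gave 47 for N-MYC (60.3%, against 28.6%) and 13 for WDR5 (16.7%, against 8.86%). For WDR5 under the compound it gave 18 (23.1%, against 16.3%). The E-box count was 5 within 50 bp (9.26%, against 20.7% of all called genes) and 25 with CACGCG (46.3%, against 50.9%). Leaving out a DMSO library gave 40 to 51 for N-MYC (51.3% to 65.4%, against 27.3% to 34.5% of all protein-coding genes). It gave 3 to 6 for WDR5 (3.85% to 7.69%, against 4.1% to 6.34%) and 3 to 9 for both (3.85% to 11.5%, against 3.78% to 7.28%). In IMR-32 it gave 30 to 44 for N-MYC (against 17.9% to 25.9%) and 7 to 12 for WDR5 (against 5.84% to 7.77%). Under the compound it gave 20 to 46 for N-MYC (against 10.7% to 29.5%) and 0 to 1 for WDR5 (against 0.0844% to 1.28%). E-boxes numbered 5 to 8 (11.6% to 15.7%, against 28.5% to 33.1% of all called genes), the lowest without DMSO replicate 3. In IMR-32 leaving out a library also leaves a call resting on a single list, and 44 and 12 are the genes listed in N-MYC and WDR5 replicate 1.

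Over all genes the limma counts moved more. N-MYC between lines gave 10 on the log2 scale (no MRP gene). WDR5 between lines gave 0 with the whole-list percentile, 174 on the log2 scale, 65 with the replicate block and 0 to 15 without a library, 15 being without DMSO replicate 1. WDR5 under the compound gave 11 with the whole-list percentile, 71 with the block and 4 to 121 without a library, 121 being without compound replicate 3. N-MYC against WDR5 gave 98 with the whole-list percentile and 239 to 303 without a library. The replicate block changed no call of an MRP gene, and its counts were 0 for N-MYC under the compound and 341 for N-MYC against WDR5. Between the lines same-numbered libraries did not deviate together, and the numbers there are only names. The cause of these shifts was not tested. With the whole-list percentile the median difference of all tested genes was -10.15 between compound and DMSO and -6.66 between the lines for N-MYC, and 4 of 20 and 11 of 24 MRP genes were above 0, against 11 and 16 for ranks. Missing peaks are limited by a depth that is unknown.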
